A study of Mus musculus with 16 samples.

Results

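The 10 genes described here act in muscle wasting, and each was found in the count table by its symbol: Trim63, Fbxo32, Fbxo30, Fbxo21, Foxo1, Foxo3, Foxo4, Klf15, Eif4ebp1 and Mt1. They are 10 of the 41388 genes listed. RNA was sequenced from the quadriceps of mice on a C57BL6J background, at postnatal day 36 by the labels. WT and WT + TAM animals were wild type, and Mtm1 KO and Mtm1 KO + TAM animals carried a constitutive deletion of exon 4 of Mtm1, the X-linked gene of myotubular myopathy, which encodes a lipid phosphatase. The TAM groups ate chow with tamoxifen, a ligand of the estrogen receptors, at 40 mg/kg from day 21. The deletion is not limited to muscle, the drug reached the whole animal, and the quadriceps holds fibers together with other cells. The drug diet also held sucrose for taste, and whether the control diet did is not given in the sources used here. Each group had 4 libraries, and the comparisons used the 14 that the study kept, 3 of WT, 4 of WT + TAM, 3 of Mtm1 KO and 4 of Mtm1 KO + TAM. These hold 25702605 to 29847222 counts each.

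Muscle loses mass when protein breakdown outpaces synthesis. In fasting, denervation and steroid excess, FoxO transcription factors enter the nucleus once AKT no longer phosphorylates them, and there they switch on ubiquitin ligases that mark muscle proteins for the proteasome. Glucocorticoids act on the same genes through their receptor and through Klf15, while insulin and IGF1 act against them through AKT and mTORC1.

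Among the members, Trim63 (MuRF1) and Fbxo32 (atrogin-1, MAFbx) are the classic muscle-specific ubiquitin ligases of atrophy. Fbxo30 (MUSA1) and Fbxo21 (SMART) are further F-box proteins that recruit substrates for ubiquitin ligases in wasting muscle. Foxo1, Foxo3 and Foxo4 encode the FoxO factors. Klf15 is a zinc finger factor induced by glucocorticoids that favors amino acid breakdown. Eif4ebp1 encodes 4E-BP1, which holds the cap-binding factor eIF4E and so restrains translation until mTORC1 phosphorylates it. Mt1 encodes metallothionein 1, a small cysteine-rich protein that binds zinc and copper and is a common marker of wasting muscle.

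The promoters that bear most directly on these links are those of Trim63 and of the neighboring metallothionein genes Mt1 and Mt2. RefSeq promoters (GRCm38.p6) were matched for 7 of the 10 members, and Fbxo32, Foxo4 and Eif4ebp1 had no entry. Each sequence below is the 250 bases before the transcription start, 5′ to 3′. The motifs searched on both strands were a FoxO element (GTAAACA), a metal response element (TGCNCNC) and a glucocorticoid response element (ACANNNTGT), and matches, none of which overlap, are in capitals.
Trim63 promoter, plus strand, chr4:134314870-134315119: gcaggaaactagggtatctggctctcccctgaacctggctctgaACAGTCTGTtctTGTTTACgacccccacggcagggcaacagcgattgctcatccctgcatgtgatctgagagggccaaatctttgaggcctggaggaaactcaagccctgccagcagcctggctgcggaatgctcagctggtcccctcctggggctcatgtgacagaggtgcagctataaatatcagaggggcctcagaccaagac
Mt1 promoter, plus strand, chr8:94178839-94179088: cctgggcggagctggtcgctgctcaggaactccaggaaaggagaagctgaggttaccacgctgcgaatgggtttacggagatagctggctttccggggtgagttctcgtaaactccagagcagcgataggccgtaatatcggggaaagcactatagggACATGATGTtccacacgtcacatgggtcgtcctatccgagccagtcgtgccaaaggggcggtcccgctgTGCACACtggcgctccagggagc
Mt2 promoter, plus strand, chr8:94172368-94172617: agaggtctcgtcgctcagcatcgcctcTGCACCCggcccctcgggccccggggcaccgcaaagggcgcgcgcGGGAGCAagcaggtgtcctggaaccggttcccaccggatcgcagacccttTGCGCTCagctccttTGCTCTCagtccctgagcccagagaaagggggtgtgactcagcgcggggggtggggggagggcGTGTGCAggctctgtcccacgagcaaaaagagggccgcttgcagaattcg

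In the Trim63 promoter the first capitals are the glucocorticoid motif, 206 bases before the start, and the second are the FoxO motif on the other strand, 194 bases before it. A FoxO match was present in 3.17% of the 32851 promoter windows of the same length and a glucocorticoid match in 5.84%. Trim63 was the only member with a promoter entry that held the FoxO letters. The Mt1 window holds a glucocorticoid match 92 bases and a metal match 23 bases before the start. The Mt2 window holds 5 metal matches, which do not overlap, and 4.65% of all windows have 3 or more. A single metal match is common, with 44.4% of windows having at least 1. Klf15 had 2 metal matches, Fbxo30 and Foxo3 had 1 each, and Fbxo21 and Foxo1 had none of the 3 motifs in this window. These are matches of letters in a short window and say nothing of binding or of sites outside it. The GENCODE start of Mt1, at 94179082, lies inside the Mt1 window, so the annotations place this start differently. The matches in the Mt1 and Mt2 windows are therefore not counts of all metal response elements of these genes. The GENCODE starts of Fbxo21, at 117976730, and Foxo3, at 42276755, also lie inside their windows. The Fbxo30 window lies wholly downstream of its GENCODE start, at 11281330, so its match is not upstream by that annotation.

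The genes lie apart in the genome except for the metallothioneins (positions in GRCm38, annotation GENCODE vM21). Trim63 is on chromosome 4 from 134315120 to 134329629, plus strand. Fbxo32 is on chromosome 15 from 58175879 to 58214932, minus strand. Foxo1 is on chromosome 3 from 52268336 to 52353221, plus strand, and Foxo4 is on the X chromosome from 101254528 to 101260873, plus strand. Mt1 is on chromosome 8 from 94179082 to 94180327, plus strand, and begins 5513 bases after the end of Mt2. Of the 50-base stretches of Trim63, Foxo3, Foxo4, Klf15 and Mt1 transcripts, 0 occur in transcripts of another gene. The shares were 2.57% for Fbxo32 and 6.8% for Foxo1, and the antisense genes Gm15943 and Gm20402 led the genes that share them. These antisense genes had at most 31 and 9 counts in a library, and strand use in counting is not given in the sources used here.

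The sum of 8 muscle fiber markers, Acta1, Ckm and Myh4 among them, was 149900 to 199600 CPM (counts scaled by library size and by the trimmed mean of M values, TMM) in WT and 160700 to 170000 in WT + TAM. It was 89120 to 104600 in Mtm1 KO and 82610 to 123100 in Mtm1 KO + TAM. The 8 markers of satellite cells and regenerating fibers summed to 68.4 to 81.0 CPM in WT and 271.2 to 388.5 in Mtm1 KO, and the 8 immune markers found summed to 46.4 to 55.7 and 63.0 to 141.1. In Mtm1 KO + TAM these sums were 247.0 to 376.9 and 61.0 to 106.7. Single markers did not all follow the sums. In Mtm1 KO against WT, 2 of the 8 satellite cell and regenerating fiber markers had a lower fitted value and 6 a higher one. Averaged over treatment, 6 of them rose and 1 fell at an adjusted p of 0.01 or less (edgeR). Of the 8 muscle fiber markers, 2 had a higher fitted value in Mtm1 KO than in WT and 6 a lower one. No marker of these lists was at 0 in all libraries. Fewer cells of a type and less RNA per cell cannot be told apart in these samples, and the part of cell makeup in the results below was not tested. Mtm1 was at 13.8 to 14.7 CPM in WT, 12.3 to 18.7 in WT + TAM, 2.09 to 2.52 in Mtm1 KO and 1.79 to 3.06 in Mtm1 KO + TAM. The library labelled WT replicate 1, outside the 14, had 74 counts of Mtm1 (3.82 CPM), close to the knockout level.

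Levels of different genes were compared in RPKM (reads scaled by gene length and library total), which accounts for gene length. In WT, Trim63 was the highest member at 79.5 ± 13.6 RPKM (SD, n = 3). Foxo4 at 42.8 ± 2.13 and Eif4ebp1 at 36.0 ± 4.70 followed, with overlapping ranges, and then Mt1 at 29.4 ± 1.56 and Fbxo32 at 18.7 ± 7.80. The range of Mt1 lay below that of Eif4ebp1 and above that of Fbxo32. Klf15 was at 8.40 ± 2.04 RPKM, Foxo1 at 5.21 ± 1.28, Fbxo21 at 4.18 ± 1.69, Foxo3 at 3.31 ± 0.385 and Fbxo30 at 3.17 ± 0.269. From Foxo1 down, neighbors in this order overlapped. Foxo4 was thus the FoxO mRNA with the highest RPKM in WT quadriceps, with 40.4 to 44.5 against 4.45 to 6.69 for Foxo1 and 3.03 to 3.75 for Foxo3.

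In Mtm1 KO the order was another one. Mt1 came first at 355.8 ± 147.5 RPKM (SD, n = 3), and its range of 205.7 to 500.4 overlapped that of Trim63, which was at 181.1 ± 66.9. Eif4ebp1 at 47.2 to 55.1 RPKM and Fbxo32 at 39.2 to 69.2 overlapped, and Foxo4 was next at 29.4 ± 2.36. Foxo1 was at 12.7 ± 5.45, and Klf15, Fbxo21, Fbxo30 and Foxo3 followed with overlapping neighbors.

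**Figure D1:**
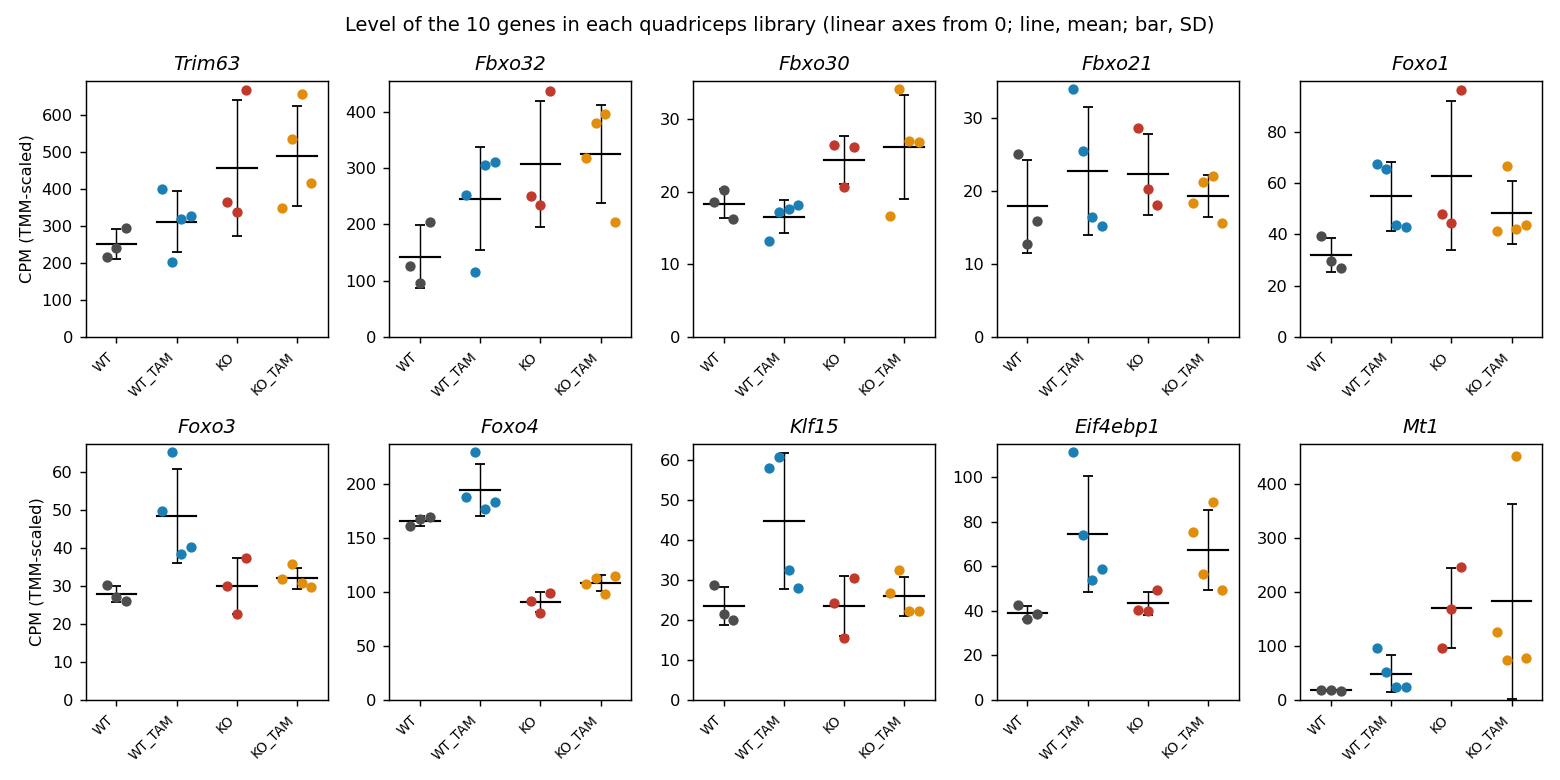
TMM-scaled CPM of the 10 genes (vertical axes, linear from 0) in each of the 14 libraries, grouped by genotype and drug (horizontal axis). Points are libraries, lines are group means and bars are SDs (n = 3 or 4). Foxo4 is lower in all 7 Mtm1 KO libraries than in all 7 WT libraries, and Mt1 is higher in all 3 untreated Mtm1 KO libraries than in the 3 of WT.

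Loss of Mtm1 was first compared without the drug. Of the 10 members, Mt1 rose and Foxo4 fell at an adjusted p of 0.01 or less (edgeR quasi-likelihood test, Benjamini-Hochberg over 14740 genes), while 3.6% of all genes tested were called. All 10 members passed the filter on low counts. The fitted log2 difference was positive for 9 of the 10 members, with a median of 0.39 against 0.02 over all genes. The members were chosen with earlier results of these data known, so this is a description and no test of the set. The groups did not overlap for 6 members, and for 36.3% of all genes.

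Mt1 was at 17.6, 19.1 and 16.3 CPM in the 3 WT libraries and at 96.3, 168.6 and 245.9 in the 3 of Mtm1 KO. Each knockout library was well above each WT library. The fitted change was 9.80-fold (log2 3.29, SE 0.31, adjusted p = 6.02e-04). Over all alternatives run for it, including DESeq2, all 16 libraries and each library left out, the adjusted p stayed between 6.69e-31 and 0.00528 and the log2 change between 2.93 and 3.60.

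Foxo4 was at 160.8, 167.2 and 169.2 CPM in WT and at 91.1, 80.6 and 99.4 in Mtm1 KO. The WT values lay close together, and the groups did not overlap. Foxo4 was 1.80-fold lower (log2 -0.85, SE 0.12, adjusted p = 0.00419). Leaving out any single library of the 6 gave a log2 difference between -0.93 and -0.76 with an adjusted p of 0.0121 to 0.0209 in each case. Scaling by library size alone moved the median of all genes in this comparison from 0.02 to 0.33 on the log2 scale, and Foxo4 then stood at -0.54 with an adjusted p of 0.0126. That scaling raised the share of called genes that were higher in Mtm1 KO from 53.1% to 88%.

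The muscle-specific ligases were higher in each Mtm1 KO library than in each WT library without passing the threshold. Trim63 was at 215.6, 241.9 and 294.8 CPM in WT and at 364.7, 337.2 and 667.6 in Mtm1 KO, a log2 difference of 0.89 (SE 0.26, adjusted p = 0.0526). The highest value belongs to Mtm1 KO replicate 11, and without this library the difference was 0.51 with an adjusted p of 0.113. Fbxo32 was at 126.6, 96.5 and 204.9 CPM in WT and at 249.9, 234.8 and 436.7 in Mtm1 KO, a log2 difference of 1.13 (SE 0.31, adjusted p = 0.0444). Replicate 11 was again the highest library, and without it the Fbxo32 difference was 0.79 with an adjusted p of 0.135. DESeq2 called both genes, with adjusted p-values of 0.00415 and 0.00113.

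The F-box genes beside them differed less. Fbxo30 was at 18.5, 20.3 and 16.2 CPM in WT and at 26.4, 20.6 and 26.1 in Mtm1 KO. The groups were close but did not overlap, and the log2 difference was 0.43 (SE 0.15, adjusted p = 0.0860). With Mtm1 KO replicate 12 added it was 0.22 (adjusted p = 0.604), and scaled by library size alone 0.75 (adjusted p = 0.00841). Fbxo21 ran from 12.7 to 25.1 CPM in WT and from 18.2 to 28.6 in Mtm1 KO, with overlap and an adjusted p of 0.418.

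Of the other regulators, Foxo1 was at 39.4, 29.6 and 26.9 CPM in WT and at 48.0, 44.3 and 96.1 in Mtm1 KO. Its groups did not overlap, and replicate 11 was again the highest. The log2 difference was 1.00 (SE 0.29, adjusted p = 0.0530), and it passed under DESeq2 with an adjusted p of 0.00457. Without replicate 11 it was 0.55 with an adjusted p of 0.122. This library also stood apart in the summed CPM of 15 glucocorticoid and Klf15 target genes, at 2820 against 1465 and 1590 in Mtm1 KO replicates 9 and 10, and the part of this in the differences of Trim63, Fbxo32 and Foxo1 was not tested. Foxo3 differed by 0.13 (SE 0.18), Klf15 by 0.02 (SE 0.24) and Eif4ebp1 by 0.17 (SE 0.13) on the log2 scale, each with overlapping groups and an adjusted p of at least 0.428. In 3 against 3 libraries, the smallest p of an exact two-sided permutation test on a single gene is 0.1, and the 6 members without overlap each had this value.

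**Figure D2:**
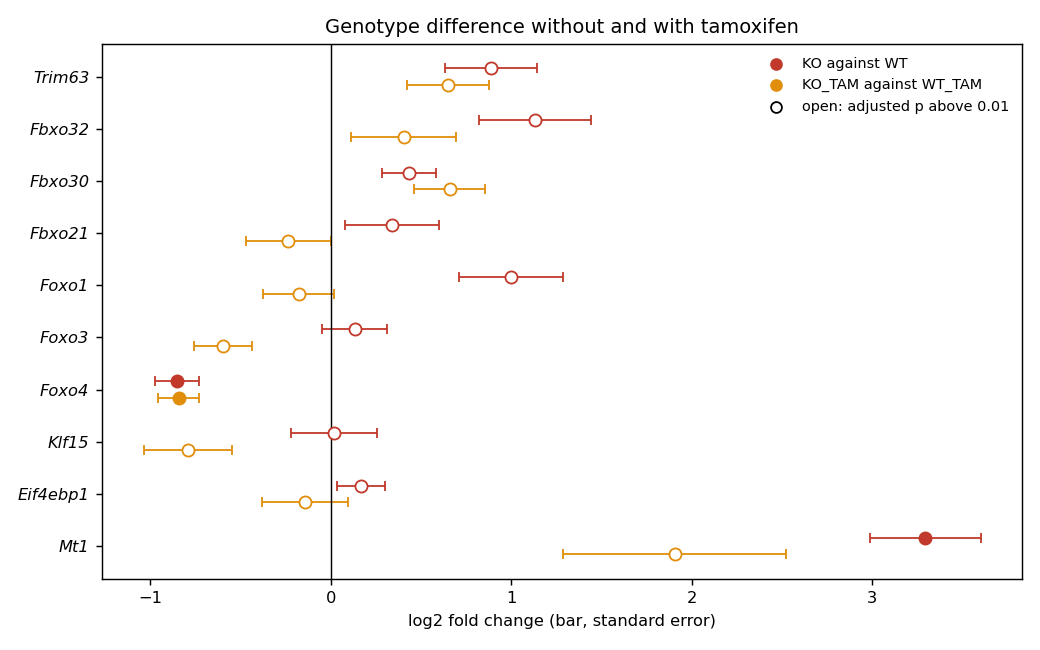
Log2 fold change of each of the 10 genes (horizontal axis, bars are standard errors) for Mtm1 KO against WT and for Mtm1 KO + TAM against WT + TAM. Filled points passed an adjusted p of 0.01 and open points did not. Foxo4 is filled in both comparisons, at -0.85 and -0.84, and Mt1 only in the untreated one.

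The same genotypes were then compared under tamoxifen. Foxo4 alone was called among the 10 members, where 6.72% of 14563 genes were called. Foxo4 was at 187.9, 229.7, 177.0 and 183.4 CPM in WT + TAM and at 107.7, 112.9, 98.4 and 114.5 in Mtm1 KO + TAM. No library of one genotype reached the values of the other, and the log2 difference of -0.84 (SE 0.11, adjusted p = 9.05e-04) passed under all alternatives run. With 4 libraries in each group, its exact two-sided permutation p was 0.0286, the smallest this design can give. This p takes each library as a separate animal.

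Mt1 was at 96.3, 50.9, 23.6 and 24.8 CPM in WT + TAM and at 125.5, 74.4, 452.9 and 78.6 in Mtm1 KO + TAM. The groups overlapped because WT + TAM replicate 5 was above 2 of the knockout libraries. The log2 difference was 1.90 (SE 0.62, adjusted p = 0.0555). Without Mtm1 KO + TAM replicate 15, the highest library, it was 0.93 with an adjusted p of 0.208.

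Foxo3 was at 49.6, 65.2, 38.4 and 40.1 CPM in WT + TAM and at 31.7, 35.9, 30.7 and 29.7 in Mtm1 KO + TAM. The groups did not overlap, and the log2 difference was -0.59 (SE 0.16, adjusted p = 0.0285), which DESeq2 called at 0.00863. Scaled by library size alone it was -0.32 (adjusted p = 0.186), and limma on log2 RPKM gave -0.28 and -0.24 at its pseudocounts. Klf15 was at 58.1, 60.8, 32.5 and 27.9 CPM in WT + TAM and at 26.7, 32.4, 22.2 and 22.2 in Mtm1 KO + TAM, with a log2 difference of -0.79 (SE 0.24, adjusted p = 0.0471), or -0.51 (adjusted p = 0.131) scaled by library size alone. Replicates 5 and 6 of WT + TAM set these values apart, while replicates 7 and 8 lay at or near the knockout range.

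Fbxo30 was at 13.2, 17.2, 17.6 and 18.2 CPM in WT + TAM and at 16.6, 34.1, 26.9 and 26.8 in Mtm1 KO + TAM, a log2 difference of 0.66 (SE 0.20, adjusted p = 0.0413). Only Mtm1 KO + TAM replicate 13 lay within the WT + TAM range, and without it the difference was 0.84 with an adjusted p of 0.00631. Trim63 was at 400.0, 201.7, 317.8 and 328.1 CPM in WT + TAM and at 349.0, 534.8, 655.3 and 415.8 in Mtm1 KO + TAM, a log2 difference of 0.65 (SE 0.23, adjusted p = 0.0735). Fbxo32 differed by 0.40 (SE 0.29), Foxo1 by -0.18 (SE 0.20), Fbxo21 by -0.23 (SE 0.23) and Eif4ebp1 by -0.14 (SE 0.24), all with overlapping groups. The sign of the last 3 turned positive, at 0.11, 0.06 and 0.15, when libraries were scaled by size alone, which moved the median of all genes to 0.27 and the share of called genes that were higher from 50.9% to 88.4%.

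With all 14 libraries in a single fit and the genotype difference averaged over treatment, 4 of the 10 members passed, and 19.4% of 15556 genes did. Trim63 rose 1.69-fold (log2 0.76, SE 0.19, adjusted p = 0.00666). Fbxo30 rose by a log2 of 0.53 (SE 0.14, adjusted p = 0.00789), Mt1 by 2.59 (SE 0.44, adjusted p = 4.18e-04), and Foxo4 fell by 0.86 (SE 0.08, adjusted p = 3.12e-06). Fbxo32 differed by 0.75 (SE 0.24, adjusted p = 0.0246). The calls of Trim63 and Fbxo30 were near the threshold. Fbxo30 lost its call on leaving out any of 12 single libraries, with an adjusted p of at most 0.024, and Trim63 on leaving out any of 8, at most 0.0222. Trim63 and Fbxo30 were both lost without WT replicate 2 or 3, WT + TAM replicate 6, 7 or 8, Mtm1 KO replicate 11, or Mtm1 KO + TAM replicate 14 or 15.

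The difference between Mtm1 KO + TAM and untreated WT shares the WT libraries with the first comparison. Mt1 (log2 3.37, SE 0.61, adjusted p = 0.00429) and Foxo4 (log2 -0.61, SE 0.11, adjusted p = 0.00347) were called, with 7.7% of 14942 genes. Trim63 stood at 0.96 (SE 0.21, adjusted p = 0.0109), Fbxo32 at 1.19 (SE 0.28, adjusted p = 0.0140) and Eif4ebp1 at 0.79 (SE 0.19, adjusted p = 0.0162), and DESeq2 called these 3 as well. Without WT replicate 2 or 3, neither Mt1 nor Foxo4 passed, and without WT replicate 4 only Fbxo32 did, at an adjusted p of 0.00705. Foxo4 also lost its call without Mtm1 KO + TAM replicate 15, and Mt1 without replicate 13, where its adjusted p was just above the threshold. Scaled by library size alone, Foxo4 stood at -0.33 and lost its call (adjusted p = 0.0512). That scaling moved the median of all genes to 0.28 and the share of called genes that were higher from 46.3% to 84.1%.

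Tamoxifen was compared within each genotype. The paper reports that this dose lowered body weight in both genotypes, and it cites earlier work on reduced food intake. It also reports smaller fibers in treated wild-type males. The part of weight and food intake in the tamoxifen differences was not tested. In WT, edgeR called none of the 10 members, with 0.131% of 14544 genes called. An unadjusted p of 0.05 or less was found for 6 members and for 1549 of the 14544 genes. DESeq2 called 2, Foxo3 and Eif4ebp1, and the edgeR exact test and limma on log2 RPKM called 0. The log2 difference was positive for 9 of 10 members, with a median of 0.78 against 0.00 over all genes. Because of how the members were chosen, this too is only a description. The groups did not overlap for 5 members, Foxo1, Foxo3, Foxo4, Eif4ebp1 and Mt1, and for 11.4% of all genes.

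Eif4ebp1 was at 42.5, 36.5 and 38.4 CPM in WT and at 111.2, 74.1, 53.9 and 58.7 in WT + TAM. The treated libraries all lay above the untreated ones but spread over a wider range, and the log2 difference was 0.93 (SE 0.24, adjusted p = 0.166). Foxo3 was at 30.1, 27.2 and 26.0 CPM in WT against the 38.4 to 65.2 given for WT + TAM, a log2 difference of 0.80 (SE 0.19, adjusted p = 0.121). Foxo1 was at 67.3, 65.5, 43.8 and 42.8 CPM in WT + TAM, a log2 difference of 0.78 (SE 0.21, adjusted p = 0.190). Klf15 differed by 0.93 (SE 0.28, adjusted p = 0.268), with 20.1 to 28.9 CPM in WT, and Mt1 by 1.47 (SE 0.45, adjusted p = 0.269). Without WT + TAM replicate 5 the Mt1 difference was 0.90 (adjusted p = 0.384).

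The 4 WT + TAM libraries fell apart in the same way for several members. Replicates 5 and 6 were the higher pair and replicates 7 and 8 the lower pair for Foxo1, Klf15, Eif4ebp1 and Mt1, and the same held for Foxo3, Foxo4 and Fbxo21. The sum of 15 glucocorticoid and Klf15 target genes was 3059 and 2944 CPM in replicates 5 and 6 and 1341 and 1328 in replicates 7 and 8, against 1078 to 1358 in WT. The sum of 13 clock genes was 1022 and 1288 CPM against 817.0 and 810.5, with 589.9 to 803.6 in WT, and the sum of 6 fat cell markers was 3008 and 1926 against 764.5 and 767.1, with 278.6 to 1904 in WT. The sum of 5 fibroblast markers was 2930 and 2613 CPM in replicates 5 and 6 and 4145 and 4055 in replicates 7 and 8, all below the 4446 to 5207 of WT. The sum of 4 endothelial markers was 217.1 and 215.4 against 276.5 and 275.7, with 271.5 to 413.0 in WT. The part of these in the tamoxifen difference was not tested. Replicates 7 and 8 lay close in each of these sums, and the counts cannot tell whether they came from separate animals. The ligases did not follow this split, since replicate 6 had the lowest Trim63 (201.7 CPM) and Fbxo32 (115.8 CPM) of the group. Fbxo32 was at 251.4, 304.5 and 311.5 CPM in replicates 5, 7 and 8, a log2 difference from WT of 0.78 (SE 0.35, adjusted p = 0.467), and Trim63 differed by 0.31 (SE 0.21, adjusted p = 0.654).

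In Mtm1 KO muscle, tamoxifen gave none of the 10 members a call under edgeR, DESeq2, the exact test or limma, and edgeR called 0% of 15062 genes, although 1137 had an unadjusted p of 0.05 or less and DESeq2 called 72. Eif4ebp1 was the only member with an unadjusted p of 0.05 or less and the only one without overlap (7.69% of all genes had none). It was at 40.5, 40.0 and 49.2 CPM in Mtm1 KO and at 75.2, 56.5, 88.8 and 49.2 in Mtm1 KO + TAM. The lowest treated library and the highest untreated library were nearly equal, and the log2 difference was 0.63 (SE 0.20, edgeR adjusted p = 0.409, exact permutation p = 0.0571). The 95% intervals around the differences, from the standard error and 5 degrees of freedom, were -0.60 to 0.77 for Trim63 and -0.59 to 0.74 for Fbxo32. They were -0.34 to 0.50 for Foxo3, -0.06 to 0.56 for Foxo4 and -1.37 to 1.56 for Mt1. The interval was widest for Mt1, whose 4 treated libraries spread from 74.4 to 452.9 CPM.

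**Figure D3:**
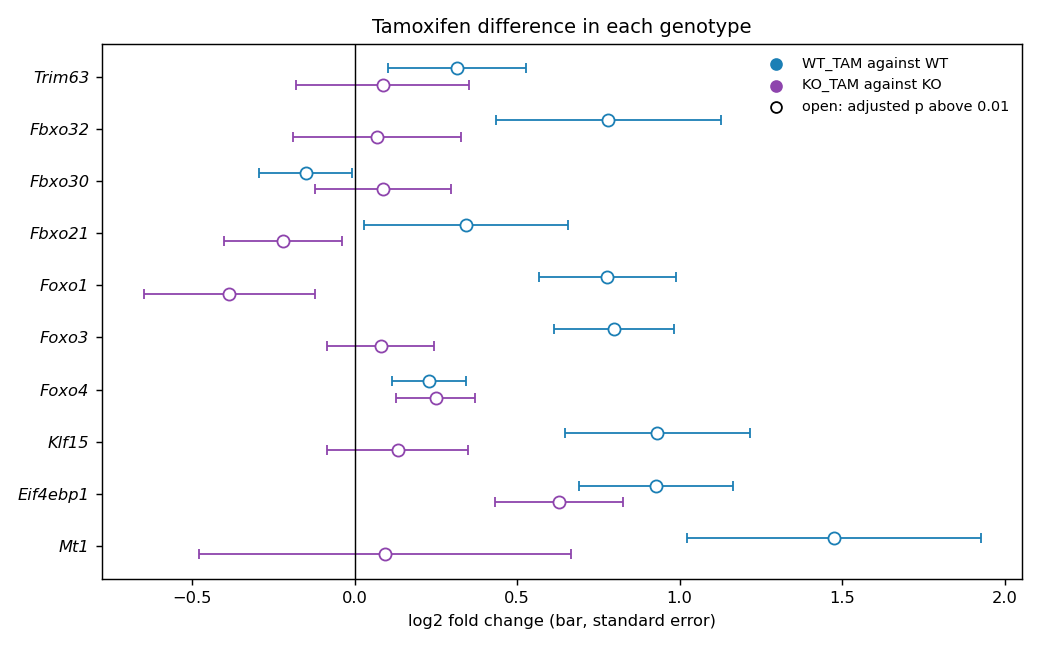
Log2 fold change of each of the 10 genes (horizontal axis, bars are standard errors) for tamoxifen in WT and in Mtm1 KO. All points are open, since no member passed an adjusted p of 0.01, and Foxo1 lies at 0.78 in WT and at -0.39 in Mtm1 KO.

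Averaged over genotype, tamoxifen gave 0 calls among the members in edgeR, and 0.591% of all genes were called. An unadjusted p of 0.05 or less was found for 4 members and for 2200 of 15556 genes. DESeq2 called 1, Eif4ebp1. The log2 difference of Eif4ebp1 was 0.78 (SE 0.17, adjusted p = 0.0238), and it was the same in sign within WT and within Mtm1 KO. Foxo3 (0.45, SE 0.13, adjusted p = 0.103), Klf15 (0.54, SE 0.20, adjusted p = 0.202) and Foxo4 (0.25, SE 0.08, adjusted p = 0.154) did not pass.

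The difference between the tamoxifen effects in the 2 genotypes was tested as an interaction, and 0 members and 0 of 15556 genes passed in edgeR, with 2 members and 664 genes at an unadjusted p of 0.05 or less and 12 genes called by DESeq2. The 2 members were Foxo1 (log2 -1.15, SE 0.38, edgeR adjusted p = 0.934) and Foxo3 (log2 -0.71, SE 0.26). Without Mtm1 KO replicate 11 the Foxo1 value was -0.71. Klf15 stood at -0.79 (SE 0.39). The tamoxifen difference is therefore not shown to depend on genotype for any member.

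Close relatives of the members went in both directions with loss of Mtm1. Trim55 and Trim54, the MuRF2 and MuRF3 relatives of Trim63 in the sarcomere, were both lower in the average over treatment, with log2 changes of -1.19 (SE 0.17, adjusted p = 1.04e-04) and -0.35 (SE 0.09, adjusted p = 0.00794). Trim55 was at 51.5 to 77.7 CPM in WT and at 16.3 to 29.9 in Mtm1 KO, with no overlap, where Trim63 was higher. Under scaling by library size alone, Trim54 was at -0.04 (adjusted p = 0.717) and Trim55 at -0.88 (adjusted p = 0.00058). Foxo6, a further FoxO gene, was at 28.7, 29.0 and 30.7 CPM in WT and at 16.7, 12.6 and 9.72 in Mtm1 KO (log2 -1.16, SE 0.19, adjusted p = 0.00658). It was also lower under tamoxifen in WT, at 8.21, 12.6, 14.3 and 16.6 CPM, a log2 difference of -1.19 (SE 0.20, adjusted p = 0.0359) that missed the threshold. Eif4ebp2 had a log2 change of -0.95 (SE 0.20, adjusted p = 0.00185) in the average over treatment, where Eif4ebp1 had 0.00 (SE 0.16).

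Mt2 moved with Mt1. It was at 8.47, 11.8 and 7.04 CPM in WT and at 122.7, 224.1 and 406.8 in Mtm1 KO, a log2 change of 4.81 (SE 0.44, adjusted p = 5.83e-04). All knockout libraries exceeded all WT libraries. Over the 14 libraries the Pearson r of log2 CPM of Mt1 and Mt2 was 0.98, the highest of any gene with Mt1, which is a description over samples that share groups. The ratio of Mt2 to Mt1 CPM, examined after these values were seen and given without a test, was 0.433 to 0.845 in the 7 libraries with intact Mtm1 and 1.22 to 1.65 in the 7 with the deletion. A ratio within a library does not depend on scaling. Of the 50-base stretches of Mt2, 45.8% also occur in its antisense gene Gm45774, so the Mt2 values are less certain than those of Mt1. Mt3 had 43 to 78 counts in WT and 1072 to 2651 in Mtm1 KO (log2 4.65, adjusted p = 2.74e-04). Mt4 had 0 counts in all WT and WT + TAM libraries 9 to 17 in Mtm1 KO and 0 to 34 in Mtm1 KO + TAM.

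**Figure D4:**
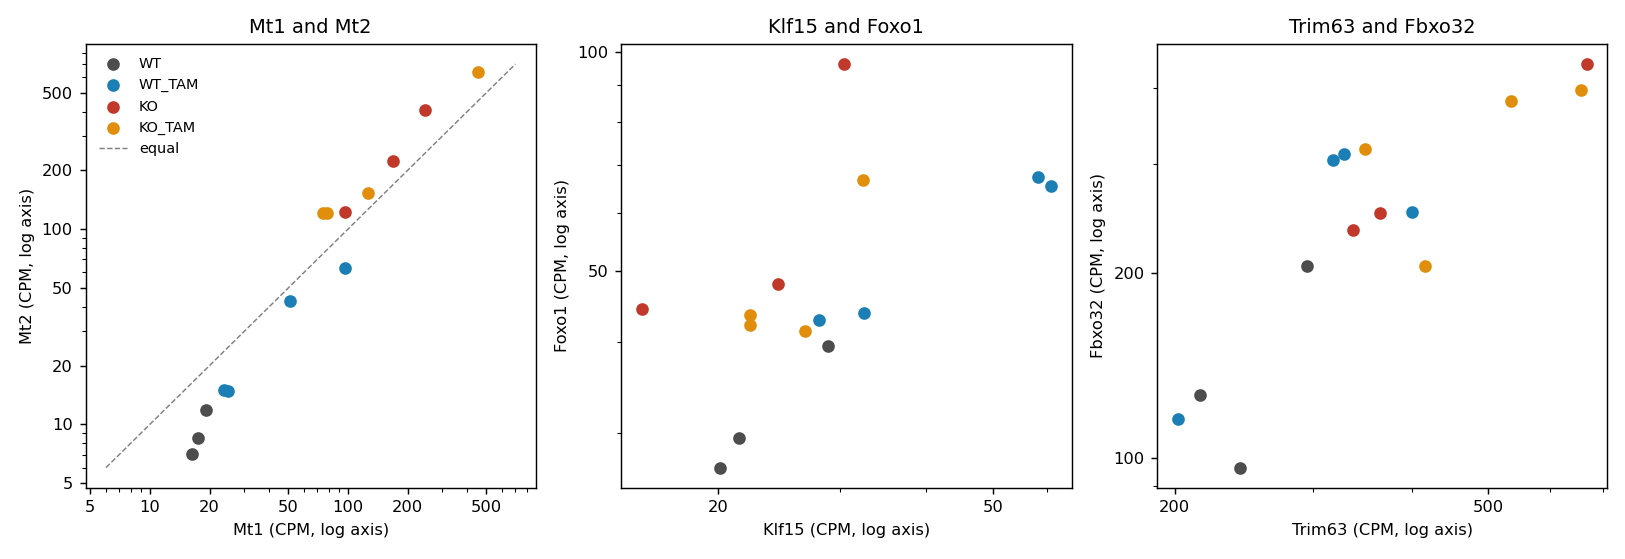
CPM of 3 pairs of genes on log axes, with 1 point for each of the 14 libraries, colored by group. The dashed line in the left panel marks equal CPM: the 7 WT and WT + TAM libraries lie below it and the 7 libraries with the deletion above it. In the right panel Mtm1 KO replicate 11 has the highest Trim63 and Fbxo32.

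Within the groups, 6 pairs among Trim63, Fbxo32, Foxo1 and Klf15 were compared as log2 CPM centered on each group mean, with permutation within groups and adjustment over the 6 pairs. Foxo1 and Klf15 had Pearson r = 0.85 (permutation p = 0.00168, adjusted 0.0101, n = 14) and Spearman rho = 0.81 (permutation p = 0.00967, adjusted 0.0292). Without the 2 libraries farthest from the median of Foxo1, r was 0.90 (permutation p = 0.0154, n = 12). With all 16 libraries, grouped by their labels, r was 0.66 (adjusted permutation p = 0.130), so it was not called in that set. The label of WT replicate 1 is uncertain, as its Mtm1 was close to the knockout level. Trim63 and Fbxo32 had r = 0.77 (permutation p = 0.00979, adjusted 0.0294, n = 14) and rho = 0.75 (permutation p = 0.00972, adjusted 0.0292). Without Mtm1 KO replicate 11 and WT + TAM replicate 6, r was 0.50 (permutation p = 0.249, n = 12), and the relation no longer passed. On log2 RPKM, r was 0.79 over the 14 libraries and 0.74 (permutation p = 0.0502, n = 12) without Mtm1 KO replicate 11 and Mtm1 KO + TAM replicate 15, which were farthest from the median on that scale. The other 4 pairs, each a factor with a ligase, had r from -0.18 to 0.34 and an adjusted permutation p of at least 0.768.

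As a description over the same 14 libraries and 15556 genes, with no test, the genes most like each member in log2 CPM were found. Klf15 and Foxo3 were each other's closest, with r = 0.95. Trim63 was closest to Col7a1 (r = 0.93) and to the proteasome subunit gene Psma5 (r = 0.92). Fbxo32 was closest to Atp6v0c (r = 0.89), Foxo1 to Slc4a8 (r = 0.92), Fbxo30 to Itgb1 (r = 0.94) and Fbxo21 to Por (r = 0.92). Eif4ebp1 was closest to Tcap (r = 0.89), which encodes the Z-disc protein telethonin, and to the proline-catabolizing gene Prodh (r = 0.89). Foxo4 was closest to Kif1c (r = 0.99). Libraries of a group share genotype and drug, and the points are not independent of the group differences.

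Around the members, 7 lists of related genes were counted in the genotype difference averaged over treatment, where 19.4% of all genes were called. Of 15 other muscle ubiquitin ligases, 0 rose, 6 fell and 9 were not called, with a median log2 of -0.31 against 0.01 over all genes. Asb2 (-1.23), Fbxo31 (-0.81) and Cblb (-0.33) were among those that fell, as were Trim55 and Trim54. Of 18 FoxO target genes, 6 rose, 3 fell and 9 were not called. The log2 difference was positive for 8 and negative for 10, with a median of -0.05 against 0.01 over all genes. The highest was Cdkn1a, the cell cycle inhibitor p21, at 29.4 to 38.1 CPM in WT and 301.0 to 592.3 in Mtm1 KO (log2 3.13 averaged over treatment, adjusted p = 1.39e-07). Gadd45a (1.58), Cited2 (0.80), Ctsl (0.55), Psmd11 (0.43) and Gabarapl1 (0.39) rose as well, and Ulk1 (-0.72), Sod2 (-0.43) and Sesn1 (-0.42) fell. Ulk1 starts autophagy and Gabarapl1 coats autophagosomes.

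**Figure D5:**
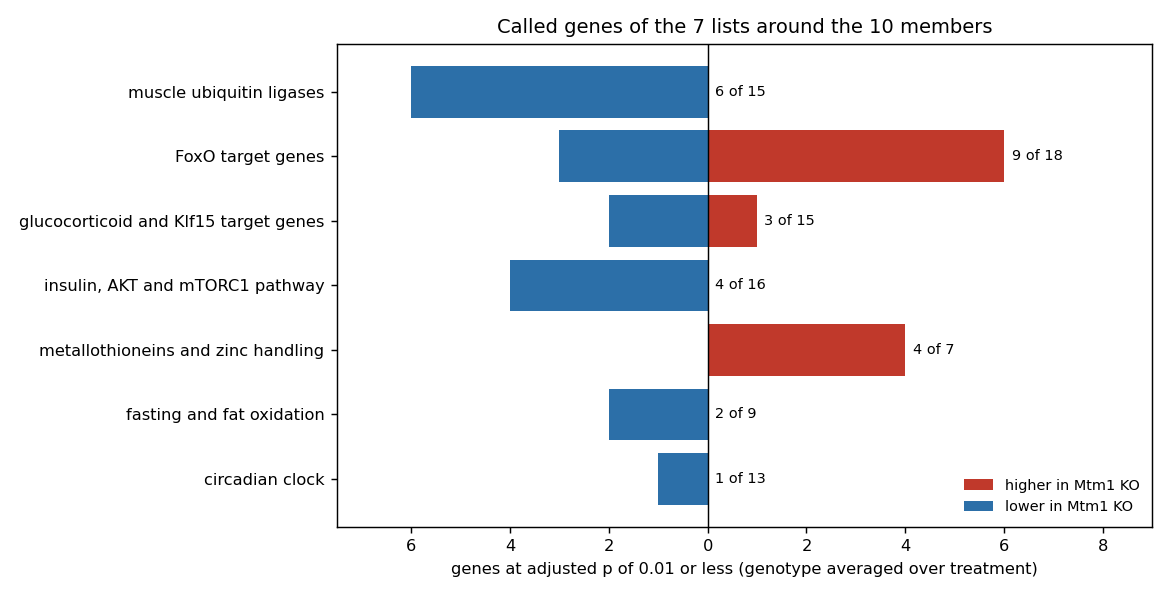
Number of genes in each of 7 lists (vertical axis) that were higher (right) or lower (left) in Mtm1 KO at an adjusted p of 0.01 or less, with genotype averaged over treatment. The number called of those tested stands beside each bar, with 9 of 18 FoxO target genes and 6 of 15 muscle ubiquitin ligases. The 4 metallothionein and zinc genes called include Mt4, which passed the filter only through the knockout groups.

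Of 16 genes of the insulin, AKT and mTORC1 pathway, 4 fell and 12 were not called. These were Tsc1 (-0.72), which restrains mTORC1, Eif4ebp2, the insulin receptor gene Insr (-0.54) and Foxo6. Of the 15 glucocorticoid and Klf15 target genes, Mt2 rose, and the kinase gene Sgk1 (-0.86) and the glucocorticoid receptor gene Nr3c1 (-0.41) fell. Of 7 tested genes of metallothioneins and zinc handling, Mt2, Mt3 and the zinc importer gene Slc39a14 (0.69) rose. Mt4, at 0 counts in every WT and WT + TAM library, passed the filter on low counts only through the knockout groups, and its call is no support for the list. Cpt1b (-0.78) and Lpin1 (-0.46) fell among 9 genes of fasting and fat oxidation, and Cry1 (-0.58) fell among 13 clock genes. Scaling by library size alone moved the median of all genes by genotype from 0.01 to 0.31 and the share of called genes that were higher from 46.4% to 89%. Of the genes named in these lists as lower, Trim55, Asb2, Fbxo31, Ulk1 and Sgk1 then kept their call, and the others stayed below 0 without one.

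Under tamoxifen in WT, none of these lists had a call in edgeR. Of the 15 glucocorticoid and Klf15 target genes, 14 had a positive log2 difference, with a median of 0.90 against 0.00 over all genes, and of 13 clock genes 9 did, with a median of 0.49. Under tamoxifen in Mtm1 KO, 6 of the 15 and 8 of the 13 did, with medians of 0.00 and 0.29 against -0.01. Within the first list, Cebpb (0.90, SE 0.15, adjusted p = 0.0335) was nearest to the threshold, followed at a distance by genes such as Per1 (1.11, adjusted p = 0.176) and Glul (1.51, adjusted p = 0.382). The replicates 5 and 6 that led Klf15 and Foxo1 also led this list, as given above.

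The libraries left out of the 14, scaled together with them as 16, had values outside their groups for some members. In the library labelled WT replicate 1, Mt1 was at 43.4 CPM, above the other WT libraries, Fbxo30 was at 7.89 and Foxo4 at 137.7, while Trim63 (241.1) and Fbxo32 (197.4) lay within the WT range. In Mtm1 KO replicate 12, Klf15 was at 5.44 CPM and Foxo4 at 68.8, both below the other 3 knockout libraries, and Mt1 was at 233.0. With all 16 libraries, Mt1 was the only member called for Mtm1 KO against WT (log2 2.97, adjusted p = 0.00358). That set counts the library labelled WT replicate 1 as WT, though its Mtm1 was close to the knockout level.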

How the data were processed

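Quadriceps RNA was sequenced in 16 libraries with a TruSeq RNA kit. The authors aligned reads with STAR to GRCm38 and deposited raw counts per gene from HTSeq. The authors also deposited RPKM, which are these counts divided by the library total and the gene length, with no scaling for composition. The submitters' processing notes name bcl2fastq 2.17, STAR 2.5.0c and Cufflinks 2.2.1. The main set is the 14 libraries the study kept, with 25702605 to 29847222 counts. The library labelled WT replicate 1 and Mtm1 KO replicate 12 entered only as alternatives. Every result with all 16 libraries counts the former as WT by its label. Its Mtm1 was close to the knockout level, so these results may mix genotypes.

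Counts were scaled by TMM, filtered by filterByExpr and tested with the edgeR quasi-likelihood test (edgeR 4.0.16 in R 4.3.3), with Benjamini-Hochberg adjustment over all genes tested. Calls used an adjusted p of 0.01. The pairwise fits held the libraries of both groups, and the averaged and interaction fits held all 14. DESeq2 1.42.0, the edgeR exact test and limma 3.58.1 on log2 RPKM with a pseudocount of 0.1 or 1 were alternatives, beside other scalings, filters and each library left out. The scripts were tested on simulated data. The study states that samples came from littermates, but the litter of each library is not given in the sources used here, and p-values measure the spread between these libraries only. No 2 libraries had the same counts for all genes in 120 pairs, a check that finds only copied columns. It cannot tell whether 2 libraries came from the same RNA. WT + TAM replicates 7 and 8 lay close in every list sum. Fat cell markers summed to 764.5 and 767.1 CPM and red blood cell markers to 160.3 and 158.3, and the reason was not tested. If these libraries shared an animal, every test with WT + TAM would count more animals than there were. Its p-values, those from permutation included, would then be too small. Within-group correlations used 1e+05 permutations.

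The 10 genes and the gene lists were chosen with earlier results of these data known. Genes named beside the members are their close relatives, called genes of the lists and the most alike genes by Pearson r. The values of 1 gene of the ligase list are not reported here.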

Additional observations from a re-analysis of the deposited data

Results flagged for a closer look

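Of 20 groups of 4 libraries, 10 genes in each of WT + TAM and Mtm1 KO + TAM, 2 held a library far from the other 3 by Dixon's gap ratio, taken at its critical value. Chance gives about 5% of groups. Foxo1 was at 66.6 CPM in Mtm1 KO + TAM replicate 14, and at 41.4 to 43.6 in the other 3, a ratio of 0.914. Mt1 was at 452.9 CPM in Mtm1 KO + TAM replicate 15, and at 74.4 to 125.5 in the other 3, a ratio of 0.865. Without replicate 15, Mt1 differed between Mtm1 KO + TAM and WT by a log2 of 2.40 (edgeR adjusted p = 3.22e-04). Groups of 3 were not screened.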

How the results depend on the processing

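The 37 member fold changes with an unadjusted p of 0.05 or less in the main edgeR fits were recomputed under every alternative. None of their 733 values changed sign. This selection makes a change of sign unlikely, and the values at the threshold of 0.05 repeat the main ones. Outside those, some small log2 differences changed sign with library size scaling, none of them called. Foxo1, Fbxo21 and Eif4ebp1 between Mtm1 KO + TAM and WT + TAM turned from -0.18, -0.23 and -0.14 to 0.11, 0.06 and 0.15. Foxo3 by genotype averaged over treatment turned from -0.24 to 0.06, and the interaction of Foxo4 from 0.0313 to -0.025. Of the 733 values, 638 kept their side of the threshold, 45 lost the call and 50 gained it. For Mtm1 KO against WT, 2 members were called. There were 5 under DESeq2, 4 with no filter, and 1 with all 16 libraries, with limma at either pseudocount, and without each library in turn. For Mtm1 KO + TAM against WT + TAM, 1 was called, with 4 at a threshold of 0.05, 2 under DESeq2, library size scaling and the exact test, and 1 to 2 on leaving out a library. For Mtm1 KO + TAM against WT, 2 were called, with 5 at 0.05, under DESeq2, no filter and the exact test, 4 under library size scaling and limma with a pseudocount of 0.1, 0 with all 16 libraries, and 0 to 4 on leaving out a library. By genotype averaged over treatment, 4 were called, and 2 to 4 on leaving out a library. For tamoxifen in WT, 0 were called, and 2 under DESeq2. For tamoxifen averaged over genotype, 0 were called, and 1 at 0.05, under DESeq2 and with no filter. The cause of these shifts was not tested.

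The number of all genes called moved as follows. For Mtm1 KO against WT it was 531, against 1885 at a threshold of 0.05, 1678 under DESeq2, 1163 with library size scaling, 1096 with no filter, 211 with all 16 libraries, 824 under limma with a pseudocount of 0.1, 987 in 1 fit of all 4 groups, 1452 under the exact test, 349 with Mtm1 KO replicate 12 added and 182 to 363 on leaving out a library. For Mtm1 KO + TAM against WT + TAM it was 979, against 2476 at a threshold of 0.05, 1995 under DESeq2, 1874 with library size scaling, 1695 under limma with a pseudocount of 0.1, 1616 under limma with a pseudocount of 1, 1826 under the exact test and 424 to 921 on leaving out a library. For tamoxifen in Mtm1 KO it was 0, against 72 under DESeq2, 12 with no filter, 2 in 1 fit of all 4 groups, 72 under the exact test and 0 to 1 on leaving out a library. For tamoxifen in WT it was 19, against 80 at a threshold of 0.05, 214 under DESeq2, 81 with no filter, 12 with all 16 libraries, 39 in 1 fit of all 4 groups, 178 under the exact test and 2 to 21 on leaving out a library. For Mtm1 KO + TAM against WT it was 1150, against 2993 at a threshold of 0.05, 2375 under DESeq2, 1871 with library size scaling, 1792 with no filter, 297 with all 16 libraries, 2091 under the exact test and 531 to 1246 on leaving out a library. For genotype averaged over treatment it was 3013, against 5180 at a threshold of 0.05, 5100 with library size scaling, 5070 under limma with a pseudocount of 0.1, 5062 under limma with a pseudocount of 1 and 2300 to 3131 on leaving out a library. For tamoxifen averaged over genotype it was 92, against 286 at a threshold of 0.05, 343 under DESeq2, 177 with no filter and 51 to 82 on leaving out a library. For the interaction it was 0, against 12 under DESeq2, 1 under limma with a pseudocount of 0.1 and 0 to 0 on leaving out a library.

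With all 16 libraries, grouped by their labels, the within-group r of Foxo1 and Klf15 was 0.66 (adjusted permutation p = 0.130). That of Trim63 and Klf15 turned from 0.0465 to -0.026. With 3 or 4 libraries a group, differences of the size of the standard errors given could not be told from 0. No paired analysis was possible because the groups share no replicate numbers and the litter of each library is not given in the sources used here.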
